A study of Morone chrysops with 54 samples.

Results

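Livers of juvenile white bass (Morone chrysops) fed diets without fish meal were compared with livers of fish fed diets that held it. The study sequenced messenger RNA from 54 livers, 9 for each of 6 diets, after 60 days of feeding. Every diet held soybean meal, in differing amounts. Diet 1, the control, combined it with 30% fish meal. Diet 2 held 15% fish meal with soybean meal, and Diet 3 held 15% fish meal with poultry by-product meal and soybean meal. Fish meal was absent from Diet 4 (poultry by-product meal and soybean meal), Diet 5 (all plant protein) and Diet 6 (the commercial Pro-Cision blend and soybean meal). Members of the comparison were taken from the library titles, and the absence of fish meal from Diet 6 is known from the study's methods. Of the 54 libraries 53 entered, 27 with and 26 without fish meal, because Diet 5 replicate 7 held only 755 counts. The other library totals ran from 5964761 to 17336918 counts, with medians of 10939812 with and 11609006 without fish meal.

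The protein sources, the fish oil and the plant oils also differed between the diets. Absence of fish meal and these other changes therefore cannot be told apart, and there are only 3 diets on each side. Fish are the replicates in what follows. The file names also group the fish by a T tag, 3 tags of 3 fish per diet. Each diet was fed in 3 tanks, from which 3 fish each were sampled, and whether a tag is a tank is not given in the sources used here.

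Fish meal supplies methionine, taurine and creatine, as other animal proteins also do to varying degrees. The amounts of these nutrients in the diets were not analysed here, and the study's feed analysis did not place Diet 6 low in methionine. In the liver, methionine is turned into S-adenosylmethionine, the donor of methyl groups. Those groups are used to make creatine and phosphatidylcholine, and they are partly replaced from choline by way of betaine and dimethylglycine. The sulfur of methionine can pass on to cysteine, taurine and glutathione, the main small-molecule antioxidant of the cell. The question asked here is which contigs, the assembled transcripts against which reads were counted, moved in the same direction with each of the fish-meal-free diets.

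A contig was called where edgeR's quasi-likelihood test gave a Benjamini-Hochberg adjusted p under 0.05 and the change was larger than 1.5-fold. With Diets 4, 5 and 6 pooled against Diets 1, 2 and 3, 147 of 9548 contigs tested were called (1.54%), 64 higher (0.67%) and 83 lower (0.869%) without fish meal. Each diet was then set against the mean of Diets 1 to 3. With Diet 5, 515 contigs were called (5.39%), 274 higher (2.87%) and 241 lower (2.52%). With Diet 6 the number was 256 (2.68%), 124 higher (1.3%) and 132 lower (1.38%). Diet 4 gave 0 calls (0.0%) by edgeR, with a smallest adjusted p of 0.431, against 256 contigs past an unadjusted p of 0.05 and 1.5-fold, and 2 calls by DESeq2. Sizes of change differed among Diets 4, 5 and 6 in 699 contigs (7.32%, adjusted p under 0.05, edgeR).

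**Figure D1:**
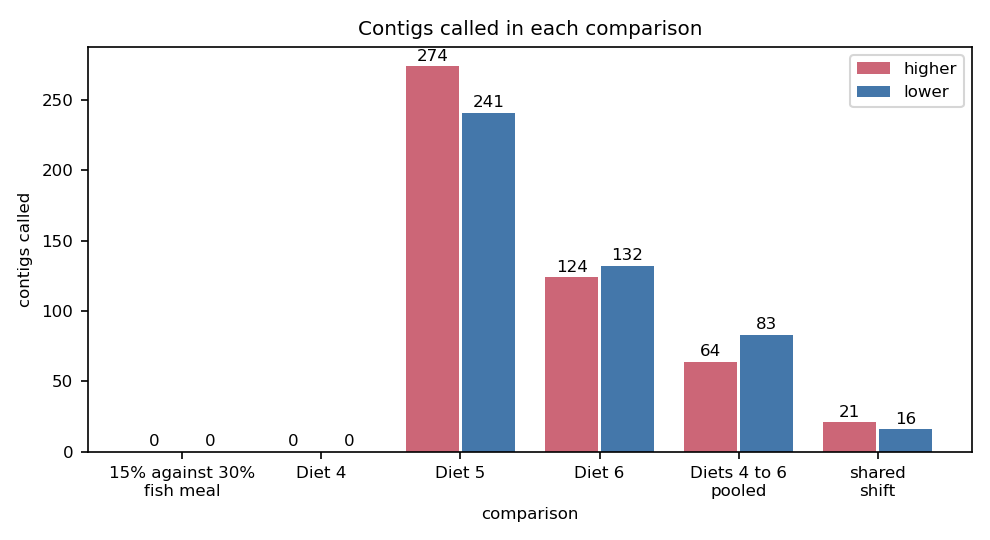
Number of contigs called higher (red bars) and lower (blue bars) in each comparison, at an adjusted p under 0.05 and more than 1.5-fold in edgeR. Diets 4, 5 and 6, alone and pooled, are set against the mean of Diets 1 to 3, and the last pair of bars counts the shared shift. Diet 5 has 274 and 241 calls, Diet 6 124 and 132, and Diet 4 has 0.

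A shared shift was defined as a call in the pooled comparison with the same sign and an unadjusted p under 0.05 in each of Diets 4, 5 and 6. It was found in 37 contigs (0.388%), 21 higher (0.22%) and 16 lower (0.168%) without fish meal. Of the 147 pooled calls, 138 had the same sign in all 3 diets. The unadjusted p was under 0.05 in 3 diets for 37 of them, in 2 diets for 90 and in 1 diet for 20. Since all 3 diets are set against the same 27 fish, these counts are not independent between diets. Diet 4 limited the number, since 65 of the 147 passed in that diet, against 122 with Diet 5 and 124 with Diet 6. None of the 37 was called with all 3 diets, because Diet 4 gave no call in edgeR. Of the 37, 23 were called with Diet 5, 25 with Diet 6 and 16 with both.

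All 37 contigs overlapped between the sides when single fish were compared, and 0 of all contigs tested (0.0%) had the 26 fish without fish meal beyond the other 27. In every one of them the 3 diet means without fish meal lay beyond the 3 diet means with it on the log2 CPM scale, which held for 1677 of all contigs tested (17.6%). The 9 T tag means of the fish-meal-free diets did not all lie beyond the other 9 in any of the 37, and did so in 9 contigs overall (0.0943%). Without Diet 1 replicate 7 the shared shift was counted in 59 contigs, and without the whole of Diet 1 in 17. Of the 37, 23 stayed called in the pooled comparison without Diet 1, 32 without Diet 2, 34 without Diet 3, 37 without Diet 4 and 24 without either Diet 5 or Diet 6. The shared shift itself was kept by 13 of the 37 without Diet 1, 29 without Diet 2 and 28 without Diet 3. Without Diets 4, 5 and 6 in turn it was kept by 37, 22 and 24, where only 2 diets had to pass. In 25 of the 37 the call held in each of 18 fits that left out 1 T tag. When counts were summed within each diet, so that 3 diets stood against 3, edgeR called 3 contigs, all among the 37. These were serine/arginine-rich splicing factor 11-like, HIG1 domain family member 1A and a contig without a name, GAZY01165524.1. The unnamed contig was at 0 in 21 of 27 fish with and 14 of 26 fish without fish meal. Its highest levels were 9.99 CPM in Diet 6 replicate 7 and 6.77 CPM in Diet 4 replicate 7. Sums per diet hide this spread between fish, so its call there can rest on few fish. With counts summed per T tag it was not called (adjusted p = 0.0858, edgeR).

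**Figure D2:**
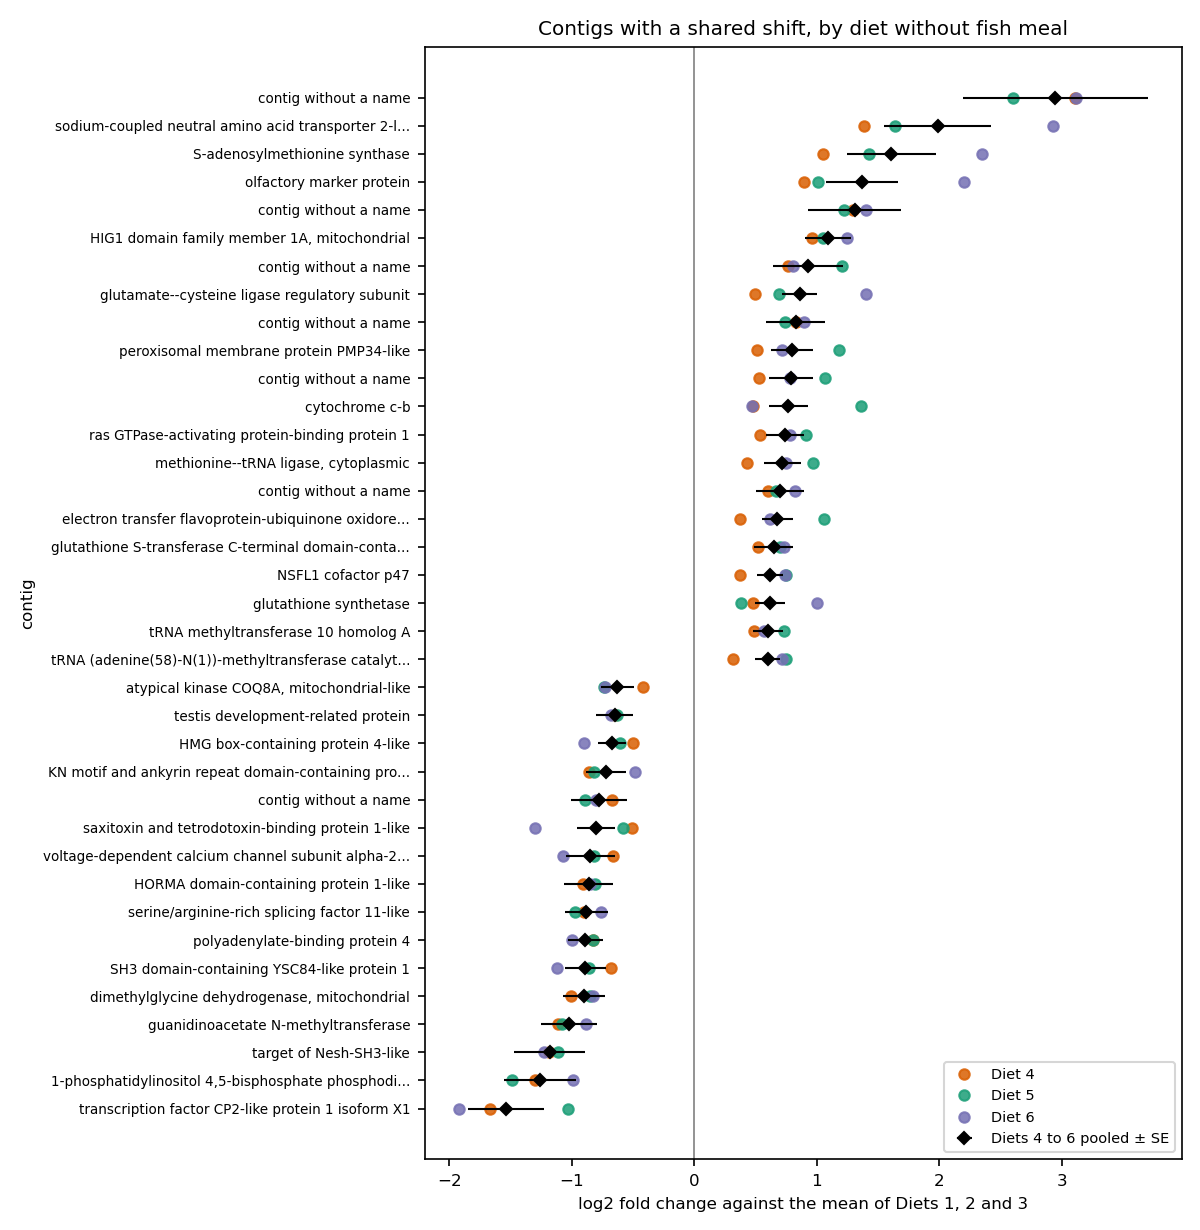
Log2 fold change against the mean of Diets 1 to 3 for the 37 contigs with a shared shift, 1 row per contig. Coloured circles show Diets 4, 5 and 6, and black diamonds the pooled value with its standard error. By definition all 3 circles of a row lie on the same side of 0. The changes run from -1.54 to 2.95 on the pooled scale.

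Names are known for 30 of the 37, from the study's own lists of contigs that differed from Diet 1 in these libraries, so the named contigs are not an independent sample. Of 975 contigs tested that have a name, 110 were called in the pooled comparison (11.3%), and the functional and marker lists below were drawn from these alone, so their counts are to be read against that share. Levels are given as CPM, counts per 1000000 counts of a library whose total is multiplied by its TMM factor, and fold changes are log2 values with standard errors (SE) from edgeR. Levels are compared between sides for 1 contig at a time, since CPM is not corrected for contig length.

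Both contigs of glutathione synthesis with a shared shift were higher without fish meal. The regulatory subunit of glutamate--cysteine ligase (contig GAZY01149213.1) partners the catalytic subunit in the first and rate-limiting step. Its level was 15 to 95.6 CPM with a median of 41.8 in the 27 fish fed fish meal, and 27.5 to 180 CPM with a median of 81.8 in the 26 others. The ranges overlapped, and 23 of the 26 fish lay above the median of the fish fed fish meal. The pooled log2 fold change was 0.86 (SE 0.146, edgeR adjusted p = 0.0003). It was 0.50 with Diet 4, 0.69 with Diet 5 and 1.40 with Diet 6, and these 3 values were not all equal (adjusted p = 0.0252, edgeR).

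Glutathione synthetase, which adds glycine in the last step of the pathway, ran from 9.55 to 37.5 CPM (median 23.1) with fish meal and from 14.1 to 68.3 CPM (median 33.0) without it. The log2 fold change was 0.62 (SE 0.121, edgeR adjusted p = 0.00109), with 0.48, 0.38 and 1.00 in Diets 4, 5 and 6. The highest levels of both contigs were in fish fed Diet 6. Glutathione synthetase was not called without Diet 1 (0.45, adjusted p = 0.0613, edgeR) or without Diet 6 (0.43). The catalytic subunit of glutamate--cysteine ligase had a smaller log2 fold change of 0.41 (SE 0.125, adjusted p = 0.0303, edgeR) and missed the fold threshold. Of the 12 contigs of the glutathione list 2 were called, both higher, which is near the share of 11.3% among named contigs, and 11 had a positive log2 fold change. The median of the list was 0.34, against 0.02 over all contigs tested. The list was drawn from named contigs, whose own median and share of positive changes are not given here. Glutathione reductase, which regenerates the reduced form, had 0.44 (adjusted p = 0.00151, edgeR) and glutathione S-transferase omega-1 had 0.49 (adjusted p = 0.00627), both under 1.5-fold. Glutathione peroxidase 3 stood at the other end with -0.76 (adjusted p = 0.205).

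Contigs of methionine, methyl group and creatine metabolism moved in both directions. S-adenosylmethionine synthase, which makes the methyl donor from methionine and ATP, was a low-level contig with 0.00 to 5.21 CPM (median 0.727) in fish fed fish meal and 0.0778 to 15.3 CPM (median 2.17) in the others. It was at 0 in 2 fish, both fed fish meal, and 24 of the 26 fish without fish meal were above the median of the fish fed it. Its highest levels were 13.4 and 15.3 CPM in Diet 6 replicates 6 and 7. Only contigs in the study's lists have names, so any other contig of this enzyme is not seen here. The log2 fold change of this contig was 1.61 (SE 0.366, edgeR adjusted p = 0.00391), with 1.05, 1.43 and 2.35 in Diets 4, 5 and 6. Guanidinoacetate N-methyltransferase, which uses that donor to finish creatine, was lower without fish meal. Its level was 54.2 to 937 CPM (median 266) with and 54.6 to 401 CPM (median 138) without fish meal, and the lowest fish of each side were alike. The log2 fold change was -1.02 (SE 0.23, edgeR adjusted p = 0.00359), with -1.11, -1.08 and -0.88 in the 3 diets, and without Diet 1 it was -0.64 (adjusted p = 0.138).

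Dimethylglycine dehydrogenase, a mitochondrial enzyme of choline breakdown that yields sarcosine, had 29.0 to 178 CPM (median 55.2) with fish meal and 16 to 61.4 CPM (median 32) without it. Of the 9 T tag means without fish meal all 9 were under the median of the other 9. In single fish 25 of 26 lay under the median of the fish fed fish meal, and 9 lay under every one of them. The pooled log2 fold change was -0.90 (SE 0.171, edgeR adjusted p = 0.000929), with -1.01, -0.85 and -0.83 in Diets 4, 5 and 6. In the list of creatine, choline and one-carbon metabolism 4 of 9 contigs were called against 11.3% of named contigs, 1 higher and 3 lower, and the median log2 fold change was -0.24. The fourth, high-affinity choline transporter 1-like, had -0.60 (adjusted p = 0.0173, edgeR) through -1.28 with Diet 6, against -0.41 and -0.12 with Diets 4 and 5, and had no shared shift.

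**Figure D3:**
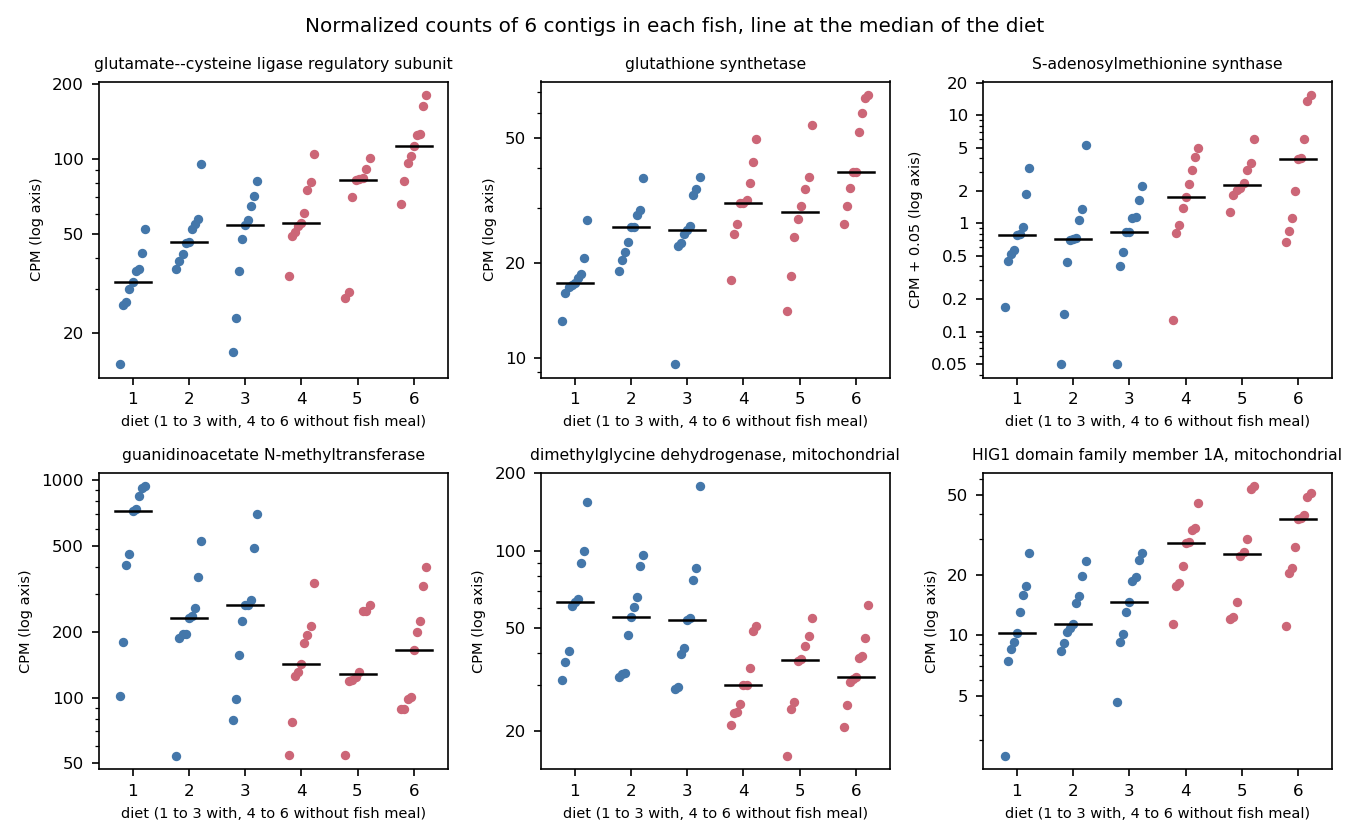
CPM of 6 named contigs in each of 53 fish on log axes, blue for Diets 1 to 3 with fish meal and red for Diets 4 to 6 without it, with a black line at the median of each diet. S-adenosylmethionine synthase is drawn as CPM + 0.05 because 2 fish had 0. Ranges overlap between the sides in every panel, as for glutathione synthetase with 9.55 to 37.5 against 14.1 to 68.3 CPM.

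The contigs that follow are grouped by known role for description only, with no list or test of the group. Methionine--tRNA ligase, which charges transfer RNA with methionine, had 10.6 to 61.3 CPM (median 23.0) with fish meal and 19.6 to 113 CPM (median 35.7) without it. All but 3 of the 26 fish lay above the median of the fish fed fish meal. Its log2 fold change was 0.72 (SE 0.153, edgeR adjusted p = 0.0023), with 0.43, 0.97 and 0.75 in Diets 4, 5 and 6. TRMT61A, the catalytic subunit of an enzyme that methylates an adenine of transfer RNA, had 4.90 to 11.5 CPM (median 7.33) with and 5.50 to 27.2 CPM (median 11.9) without fish meal. In 25 of 26 fish it was above the median of the other side, and in 14 above all 27 fish fed fish meal. Its log2 fold change was 0.60 (SE 0.101, edgeR adjusted p = 0.000306), with 0.32, 0.75 and 0.72 in the 3 diets. Without Diet 5 or Diet 6 it was 0.52 and 0.53, under 1.5-fold.

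A pair of further members were outside the rule that picked the named contigs and were chosen after their values were seen. The tRNA methyltransferase 10 homolog A, which methylates a guanine of transfer RNA, changed by 0.60 on the log2 scale (SE 0.122, edgeR adjusted p = 0.00163). Sodium-coupled neutral amino acid transporter 2-like, whose mammalian counterpart takes up small neutral amino acids, had 1.99 (SE 0.438, adjusted p = 0.00292). Its level was low, 0.00 to 0.715 CPM (median 0.0883) with fish meal and 0.00 to 5.38 CPM (median 0.497) without it. It was at 0 in 12 of 27 fish against 2 of 26, and its adjusted p was 0.0517 without Diet 6.

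The ras GTPase-activating protein-binding protein 1, known from mammals as a core protein of stress granules, was higher, with 5.14 to 38.4 CPM (median 20.1) against 13.8 to 76.8 CPM (median 34.9) without fish meal. Its change was 0.74 on the log2 scale (SE 0.154, edgeR adjusted p = 0.00181), and 25 of 26 fish were above the median of the fish fed fish meal. Polyadenylate-binding protein 4, which binds the poly(A) tail of messenger RNA, was lower, with 48.7 to 284 CPM (median 107) against 36.0 to 118 CPM (median 64.9). Its log2 fold change was -0.89 (SE 0.145, edgeR adjusted p = 0.000196), with -0.83, -0.83 and -1.0 in Diets 4, 5 and 6. Serine/arginine-rich splicing factor 11-like, named after a factor of messenger RNA splicing, had 5.64 to 42.7 CPM (median 21.3) with fish meal and 2.46 to 19 CPM (median 12.4) without it. All 26 fish without fish meal lay under the median of the fish fed it. This gave a log2 fold change of -0.88 (SE 0.178, edgeR adjusted p = 0.00157), and the call also held with 3 diets against 3 (adjusted p = 0.0207).

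Mitochondrial contigs among the 37 moved in both directions, with dimethylglycine dehydrogenase and COQ8A lower and the following higher. HIG1 domain family member 1A, an inner-membrane protein of mitochondria that hypoxia induces in mammalian cells, had 2.51 to 25.7 CPM (median 13.1) with fish meal and 11.1 to 55.0 CPM (median 28.2) without it. Of the 26 fish 15 lay above all fish fed fish meal. On the log2 scale the change was 1.09 (SE 0.187, edgeR adjusted p = 0.000338), with 0.96, 1.05 and 1.25 in Diets 4, 5 and 6 and an adjusted p of 0.0424 with 3 diets against 3.

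Electron transfer flavoprotein-ubiquinone oxidoreductase, which passes electrons from fatty acid, amino acid and dimethylglycine oxidation to ubiquinone, had 6.24 to 25.6 CPM (median 15.5) with and 10.9 to 52.9 CPM (median 24.2) without fish meal. Its log2 fold change was 0.68 (SE 0.129, edgeR adjusted p = 0.000786), with 0.37, 1.06 and 0.62 in the 3 diets. Cytochrome c-b, an electron carrier of the respiratory chain, had 4.97 to 21.7 CPM (median 13.4) against 5.11 to 78.2 CPM (median 21.4) without fish meal. The log2 fold changes of 0.48, 1.36 and 0.47 in Diets 4, 5 and 6 were not all equal (adjusted p = 0.0324, edgeR). For the pooled comparison cytochrome c-b had 0.77 (SE 0.16, adjusted p = 0.00185). Left without Diet 5, it was no longer called (adjusted p = 0.114). The peroxisomal membrane protein PMP34-like, a carrier of coenzymes into the peroxisome in mammals, had 0.80 (SE 0.171, adjusted p = 0.00227), again with its largest value, 1.18, in Diet 5, and an adjusted p of 0.0621 without that diet. NSFL1 cofactor p47, an adaptor of a protein-unfolding ATPase, had 0.62 (SE 0.109, adjusted p = 0.000407), and 24 of 26 fish were above the median of the fish fed fish meal. Without Diet 1, Diet 5 or Diet 6 it was 0.55 to 0.56, under 1.5-fold. In the opposite direction, atypical kinase COQ8A, which is needed for ubiquinone synthesis and is outside the naming rule, had -0.63 (SE 0.135, adjusted p = 0.00232). It was not called without Diet 1 (-0.40, adjusted p = 0.122, edgeR), and it stayed called in 12 of 18 fits that left out a T tag.

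Among the other contigs with a shared fall, the largest change was that of transcription factor CP2-like protein 1 isoform X1. It had 0.679 to 33.2 CPM (median 8.75) with fish meal and 0.548 to 14.5 CPM (median 3.26) without it, and a log2 fold change of -1.54 (SE 0.311, edgeR adjusted p = 0.00152). The phosphodiesterase eta-1, a phospholipase C that cleaves a membrane phosphoinositide, had -1.26 (SE 0.296, adjusted p = 0.00497) at a low level, with medians of 1.40 and 0.547 CPM. Target of Nesh-SH3-like had -1.18 (adjusted p = 0.00771), with medians of 2.86 and 1.14 CPM and an adjusted p of 0.0649 without Diet 1. Saxitoxin and tetrodotoxin-binding protein 1-like, named after a toxin-binding plasma protein of puffer fish, was abundant, with 119 to 758 CPM (median 375) against 82.9 to 513 CPM (median 213), and had -0.80 (SE 0.154, adjusted p = 0.00105). Its call was lost without Diet 6 (adjusted p = 0.0556).

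SH3 domain-containing YSC84-like protein 1 (log2 fold change -0.89) and HMG box-containing protein 4-like (-0.67) had 16 and 14 of 26 fish under every fish fed fish meal. HORMA domain-containing protein 1-like, a protein of meiotic chromosomes in mammals, had -0.86, the voltage-dependent calcium channel subunit alpha-2/delta-4 -0.85, KN motif and ankyrin repeat domain-containing protein 4 -0.72 and testis development-related protein, outside the naming rule, -0.65. The edgeR adjusted p of these 6 contigs was 0.000338 to 0.00491. Without Diet 1 it was 0.0616 to 0.105 for the HORMA, KN motif and testis development-related contigs. The remaining named rises were olfactory marker protein with 1.37 (SE 0.296, adjusted p = 0.00242) and glutathione S-transferase C-terminal domain-containing protein with 0.65 (SE 0.16, adjusted p = 0.00756). Olfactory marker protein had medians of 1.86 and 6.79 CPM, and its change was 2.20 with Diet 6 against 0.90 and 1.01 with Diets 4 and 5. It was not called without Diet 1 (adjusted p = 0.134, edgeR) or without Diet 6 (adjusted p = 0.0898). Of the 7 contigs without a name, 6 were higher and 1 was lower, and the largest change, 2.95 (SE 0.753), was that of GAZY01165524.1, which was at 0 in 21 of 27 fish with and 14 of 26 fish without fish meal.

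The step from 30% to 15% fish meal, the mean of Diets 2 and 3 against Diet 1, lies within the fish-meal side and is not used by the pooled rule, though it uses the same fish. It gave 0 calls over all contigs (0.0%) by edgeR, with 222 contigs past an unadjusted p of 0.05 and 1.5-fold, 7 calls by DESeq2 and a smallest adjusted p of 0.0763 in edgeR. Of the 37 contigs, 9 had an unadjusted p under 0.05 at this step, against 7.3% of all contigs tested. For guanidinoacetate N-methyltransferase the log2 fold change of this step was -1.14 (unadjusted p = 0.000956, edgeR), with diet means of 590, 250 and 285 CPM in Diets 1, 2 and 3 and 161, 165 and 188 CPM in Diets 4, 5 and 6. Polyadenylate-binding protein 4 had -0.84 at this step (unadjusted p = 0.000167, edgeR), with means of 187, 103 and 106 CPM and then 71.3, 71.4 and 63.6 CPM. In these 2 contigs the mean of Diet 1 stood above those of Diets 2 and 3. The same held for the exocrine pancreas score described below, with means of 10.93, 9.85 and 9.45. The glutamate--cysteine ligase regulatory subunit had 0.63 (unadjusted p = 0.0062), with means of 32.8, 52.1 and 50 CPM and then 62.5, 71.0 and 117 CPM. Olfactory marker protein had 1.37, glutathione synthetase 0.50, COQ8A -0.66, testis development-related protein -0.60 and KN motif and ankyrin repeat domain-containing protein 4 -0.56, with unadjusted p of 0.00132 to 0.0232 (edgeR). The unnamed GAZY01146214.1 had -0.69 (unadjusted p = 0.02), opposite to its pooled 0.70. Among those with the smallest steps, for TRMT61A it was -0.01, for methionine--tRNA ligase -0.01, for S-adenosylmethionine synthase 0.06 and for SH3 domain-containing YSC84-like protein 1 -0.01, with unadjusted p of 0.912 to 0.974 (edgeR).

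Markers of other cell types were read beside these results. In fish, pancreatic tissue can lie within or against the liver. The exocrine pancreas score, the mean log2 CPM of 7 markers such as trypsin-2, elastase-1-like and pancreatic lipase, was 10.1 ± 1.64 (SD, n = 27) with fish meal and 8.16 ± 2.93 (SD, n = 26) without it. Over T tag means the difference was -1.89, with p = 0.00358 by a two-sided exact permutation test of 9 against 9 (adjusted p = 0.0251 over 7 marker lists). With diets as the unit p was 0.1, the smallest that 3 against 3 can give in this exact test. The means of Diets 1, 2 and 3 were 10.93, 9.85 and 9.45. Those of Diets 4, 5 and 6 were 8.2, 9.44 and 6.98, so Diets 3 and 5 barely differed. The lowest fish fed fish meal had 4.84. Under it lay Diet 4 replicates 6 and 8, with 2.79 and 3.738. Diet 6 replicates 2, 4 and 9 also lay under it, with 1.475, 3.231 and 2.255. From Diet 1 to Diets 2 and 3 the median log2 fold change of the markers was -1.07. The summed level of the 7 markers ran from 1460 to 174000 CPM with and from 85.5 to 110000 CPM without fish meal. All 7 markers had a negative log2 fold change, from -1.29 (pancreatic lipase) to -0.43 (chymotrypsin A-like), and 0 of 7 were called (smallest adjusted p = 0.0513, edgeR). Within the L tags of the file names, which split the fish of each diet into 3 groups, the score differed by -2.12, -0.94 and -2.63.

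With the exocrine score as a covariate 31 of the 37 contigs were still called and 6 were not, and all 6 were lower without fish meal. Guanidinoacetate N-methyltransferase went from -1.02 to -0.41 (adjusted p = 0.109, edgeR) and polyadenylate-binding protein 4 from -0.89 to -0.54 (adjusted p = 0.00158), under 1.5-fold. The phosphodiesterase eta-1 went to -0.83 (adjusted p = 0.0881), KN motif and ankyrin repeat domain-containing protein 4 to -0.37 (adjusted p = 0.0637), testis development-related protein to -0.37 (adjusted p = 0.0872) and COQ8A to -0.41 (adjusted p = 0.0149). In L tag L2L4, where the score differed least, the log2 fold change was -0.09 for guanidinoacetate N-methyltransferase and -0.29 for polyadenylate-binding protein 4, against -1.42 and -1.20 in L1L8 and -1.26 and -1.01 in L3L5. The split by L tag was made after the data were seen and leaves about 3 fish per diet. All 6 falls that lost their call were smallest in L2L4, as were 5 of the 10 falls that kept it and 5 of the 21 rises. Target of Nesh-SH3-like, which kept its call, had -0.16 against -1.55 and -1.81. The 6 were picked by the same score that differed least in L2L4, so these readings are not independent. Whether exocrine tissue accounts for these falls was not tested. All 21 rises stayed called with the covariate, among them the glutamate--cysteine ligase regulatory subunit (0.83, adjusted p = 0.000561, edgeR) and methionine--tRNA ligase (0.82, adjusted p = 0.000585). Dimethylglycine dehydrogenase kept -0.81 (adjusted p = 0.00271), with -1.04, -0.83 and -0.81 within the 3 L tags. In bulk tissue, fewer cells of a type and less RNA per cell cannot be told apart.

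**Figure D4:**
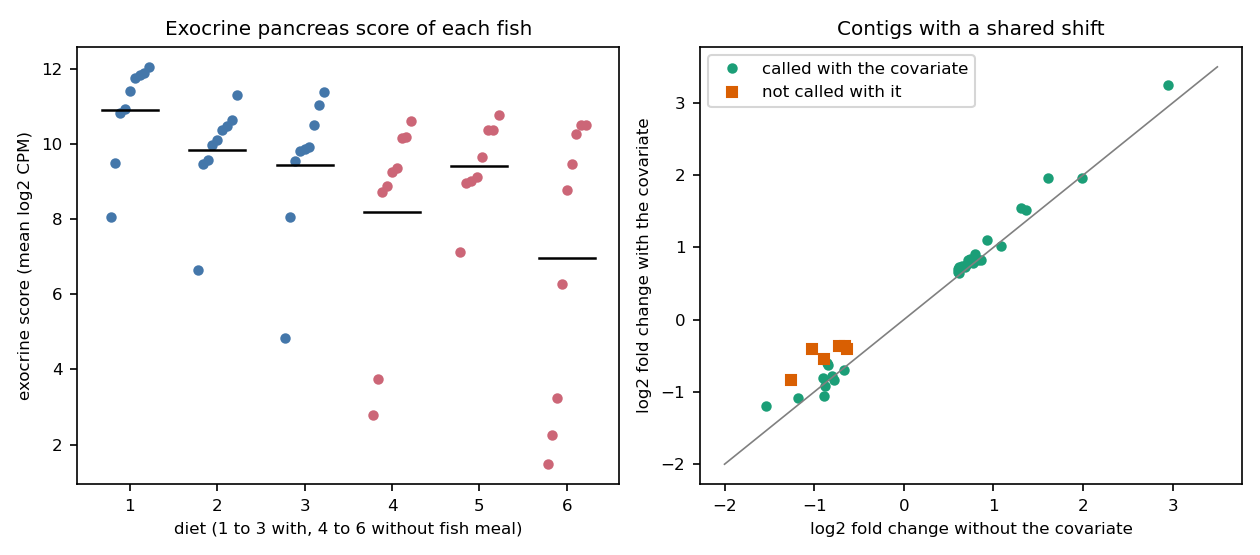
Left, exocrine pancreas score (mean log2 CPM of 7 markers) of each of 53 fish by diet, blue with and red without fish meal, with a line at the diet mean. Right, log2 fold change of the 37 contigs without (x axis) and with (y axis) the score as a covariate, with the grey line marking equal values. The 6 squares, all at negative values, are no longer called.

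The other marker lists differed less between the sides, though single diets stood apart in some. The hepatocyte score was 11.4 ± 0.277 (SD, n = 27) and 11.2 ± 0.46 (SD, n = 26), with a difference of -0.18 over T tags (exact permutation p = 0.206, adjusted p = 0.36), and its 6 markers summed to 20000 CPM or more in every liver. The mean hepatocyte score was 10.8 with Diet 6 against 11.4 to 11.6 with each other diet, and 4 of the 6 markers were called lower with Diet 6, where 17.8% of named contigs were called. The scores of phagocytes and lymphocytes, red blood cells and the enterocyte brush border differed by 0.18, 0.46 and 0.29 (exact permutation adjusted p = 0.405 for each). The phagocyte and lymphocyte score was 2.95 with Diet 5, 1.89 with Diet 4 and 2.36 with Diet 6, against 2.08 to 2.31 with Diets 1 to 3, and 6 of its 8 markers were called higher with Diet 5, where 35.3% of named contigs were called. The endocrine islet score, from insulin and homeobox protein Nkx-6.1, differed by -1.24 (exact permutation p = 0.0261, adjusted p = 0.0609), and the median fish of both sides held 0 insulin counts. The score of sex markers (male-specific protein, vitellogenin B and a homolog of vitelline membrane outer layer protein 1) differed by -0.82 (exact permutation p = 0.0164, adjusted p = 0.0574). This list mixes markers of both sexes, so its score does not read the sex of the fish. Its lowest values, 1.554 to 3.368, were in Diet 6 replicates 2, 4 and 9 and Diet 4 replicates 6 and 8. The same fish had the lowest exocrine scores, so the 2 scores are not independent. With the exocrine score as a covariate the log2 fold changes of its members were -0.58, 0.09 and 0.49 in that order. The part of sex and of islet tissue in the results was not tested. Within these lists the lowest and highest log2 fold changes were -2.10 for insulin and -1.24 for Nkx-6.1, -0.59 and -0.21 for vitelline membrane outer layer protein 1 homolog and vitellogenin B, 0.05 and 0.59 for neutrophil cytosol factor 4 and the MHC class II antigen beta chain, and 0.33 for hemoglobin subunit beta-A-like. None of these was called, with edgeR adjusted p of 0.0712 to 0.93.

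Other functional lists, chosen from the named contigs with earlier results known, held no further shared shift, and their counts of calls stand beside 11.3% of named contigs. In the pentose phosphate list, which supplies NADPH, 1 of 7 was called. This was 6-phosphogluconate dehydrogenase, with medians of 279 and 493 CPM and a log2 fold change of 0.76 (SE 0.238, edgeR adjusted p = 0.0333). It was 0.36 with Diet 4 (unadjusted p = 0.272) and 0.89 and 1.04 with Diets 5 and 6, and it stayed called in 7 of 18 fits that left out a T tag. The first enzyme of the pathway, glucose-6-phosphate 1-dehydrogenase, had 0.56 (adjusted p = 0.000747, edgeR) and missed the fold threshold, and transketolase had -0.77 (adjusted p = 0.0577). The medians were 0.20 for this list and 0.16 for fatty acid and glyceride synthesis, against 0.02 over all contigs. The median of named contigs, from which both lists were drawn, is not given here.

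In fatty acid and glyceride synthesis 1 of 13 was called, 2-acylglycerol O-acyltransferase 2 with -0.74 (adjusted p = 0.0324, edgeR), and acyl-CoA desaturase-like had 0.91 (adjusted p = 0.177). None of the 9 contigs of sterol synthesis and uptake was called, from mitochondrial acetyl-CoA acetyltransferase with -0.33 (adjusted p = 0.0191) to lathosterol oxidase-like with 0.71 (adjusted p = 0.0782). By single diet, 3 of the 9 were called higher with Diet 5 (median 0.67) and 3 lower with Diet 6 (median -0.64). The count with Diet 5 is near the share of named contigs called with that diet, 35.3%, and with Diet 6 that share was 17.8%. The reductase of 3-hydroxy-3-methylglutaryl-CoA, which controls the rate of sterol synthesis, had 0.84 with Diet 5 (adjusted p = 0.043, edgeR) and -1.02 with Diet 6 (adjusted p = 0.032). None of the 7 of amino acid and urea metabolism, the 11 of complement and acute phase and the 14 of the cell cycle was called either. Their medians were -0.39, -0.21 and -0.13. Of the 11 contigs of complement and acute phase, 7 were called lower and 1 higher with Diet 6 (median -0.86), where 17.8% of named contigs were called. With Diet 5 (median -0.01) 2 were called higher, where 35.3% of named contigs were called. Complement C5 had -0.72 with Diet 6 against -0.11 and -0.25 with Diets 4 and 5. Complement C5 and haptoglobin-like are also among the hepatocyte markers, so the values of these lists with Diet 6 are not independent. In the pooled comparison, the lowest and highest members were arginase-2 (-0.82) and N-acetylglutamate synthase (0.34) for amino acid and urea metabolism. They were alpha-1-acid glycoprotein 1-like (-0.36) and pentraxin-related protein PTX3 (0.27) for complement and acute phase. For the cell cycle they were G2/mitotic-specific cyclin-B1 (-0.36) and wee1-like protein kinase (0.47). In endoplasmic reticulum folding 1 of 13 was called, the peptidyl-prolyl isomerase FKBP11 with -0.60 (adjusted p = 0.0133, edgeR), between protein disulfide-isomerase-like with -0.83 (adjusted p = 0.0687) and the 78 kDa glucose-regulated protein with 0.39 (adjusted p = 0.319).

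**Figure D5:**
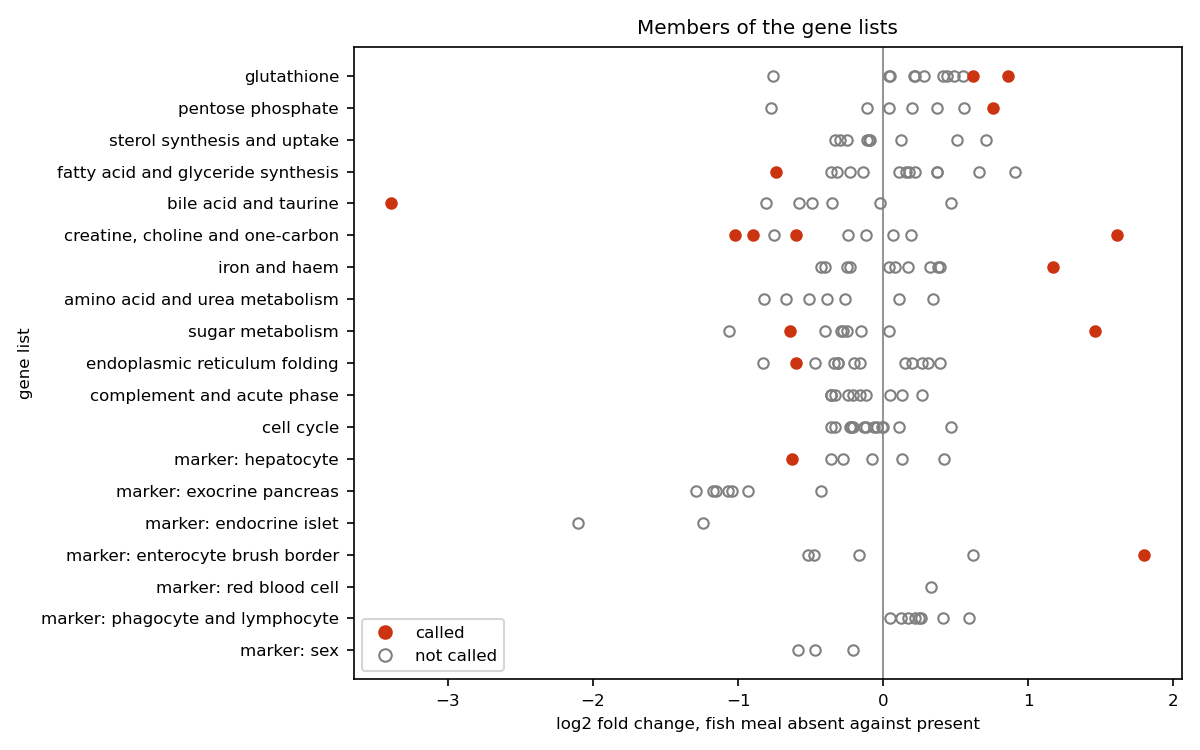
Log2 fold change of each member of the 12 functional lists and 7 marker lists, fish meal absent against present, with called members as filled red circles and the others as open circles. The 7 exocrine markers lie between -1.29 and -0.43 without a call, and the lowest called member is fibroblast growth factor 19 at -3.39.

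Several list members were called in the pooled comparison through fewer than 3 diets, and are the converse of the shared shift. Fibroblast growth factor 19, a hormone that restrains bile acid synthesis in mammals, had a pooled log2 fold change of -3.39 (SE 0.601, edgeR adjusted p = 0.000407). Its median was 2.07 CPM with Diet 4, 0.106 with Diet 5 and 0.159 with Diet 6, against 0.596, 0.976 and 3.89 with Diets 1 to 3. The change was -0.61 with Diet 4 (unadjusted p = 0.402), -4.62 with Diet 5 and -4.93 with Diet 6, and these values were not all equal (adjusted p = 0.00304, edgeR). It was the 1 call among the 7 contigs of bile acid and taurine, where the acidic amino acid decarboxylase GADL1 stood highest with 0.47 (adjusted p = 0.0709).

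Hepcidin, the peptide hormone that restrains iron export, was called with 1.17 (SE 0.386, edgeR adjusted p = 0.0466) through Diet 6. Its median was 724 CPM with Diet 6, 61.1 with Diet 4 and 21 with Diet 5, against 65.4, 11.3 and 105 with Diets 1 to 3. The log2 fold change was 3.57 with Diet 6, 0.53 with Diet 4 and -0.59 with Diet 5, and without Diet 6 it was -0.03. It was the 1 call among 11 contigs of iron and haem, where the iron exporter solute carrier family 40 member 1 stood lowest with -0.43 (adjusted p = 0.0577). In that list 4 contigs were called higher with Diet 5, and 1 higher and 4 lower with Diet 6. The count with Diet 5 is near the 35.3% of named contigs called with that diet, against 17.8% with Diet 6. Alpha-2-HS-glycoprotein-like, a plasma protein of hepatocytes, had 0.03 with Diet 4, -1.0 with Diet 5 and -0.91 with Diet 6 (adjusted p of the difference 3.56e-05, edgeR). It was the 1 call among the 6 hepatocyte markers with -0.63 (adjusted p = 0.000196), and apolipoprotein C-I-like stood highest with 0.42.

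In sugar metabolism 2 of 9 contigs were called. Fructose-1,6-bisphosphatase 1-like, an enzyme of glucose synthesis, had -0.64 (SE 0.129, edgeR adjusted p = 0.00157), with -0.37, -0.34 and -1.21 in Diets 4, 5 and 6 (adjusted p of the difference 0.0122). The contig for isoform 3 of bifunctional 6-phosphofructo-2-kinase, which sets the level of an activator of glycolysis, had 1.46 (SE 0.4, adjusted p = 0.0151). Its values in Diets 4, 5 and 6 were 0.03, 2.71 and 1.65 (adjusted p of the difference 0.0286). Its medians were 1.07 CPM with and 1.79 CPM without fish meal. With Diet 5 the mean was 7.11 CPM (SD 12.6) against a median of 2.38 CPM, so 2.71 can rest on few fish. The contig stayed called in 17 of 18 fits that left out a T tag. It was not called with counts summed per T tag (adjusted p = 0.0656, edgeR). Without Diets 1, 5 and 6 in turn its adjusted p was 0.112, 0.255 and 0.0607. Sodium/glucose cotransporter 5 stood lowest with -1.06 (adjusted p = 0.0808). Trehalase, a brush border enzyme, had 1.80 (SE 0.511, adjusted p = 0.0193) with medians of 0.00 and 0.472 CPM. It held 98 counts over 27 fish with and 240 over 26 fish without fish meal. Its mean count of 6.38 passed the filter of 5 through the side without fish meal. With counts summed per T tag it was not called (adjusted p = 0.082, edgeR), and DESeq2 gave it no adjusted p. It was the 1 call among 5 brush border markers, with claudin-15-like lowest at -0.52, and its step from 30% to 15% fish meal was 4.08 (unadjusted p = 0.000266, edgeR), larger than its pooled change.

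The 9 contigs in which all 9 T tag means without fish meal lay beyond the other 9 had small changes. Of these, 7 were higher and 2 lower, and only lymphoid-restricted membrane protein had a name. Its log2 fold change was -0.54 (SE 0.102, edgeR adjusted p = 0.0009), with -0.43, -0.48 and -0.70 in Diets 4, 5 and 6. It was chosen after its values were seen. All 9 were under the 1.5-fold threshold.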

How the data were processed

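Estimated counts were deposited by the authors, who trimmed reads with Trim Galore 0.6.5 and cutadapt 2.7, mapped them with Bowtie2 2.3.4.1 onto 20914 curated protein-coding contigs and estimated effective counts by eXpress 1.5.1 (versions from the submitters' processing notes). The values are whole numbers without normalization between libraries. Contigs whose mean count over 53 libraries was 5 or more were fitted with 6 diet means by edgeR 4.0.16 in R 4.3.3 with TMM factors, and contrasts pooled the diets. Since that mean spans both sides, a contig with few counts on 1 side could pass through the other. CPM used a prior count of 0.5 on the log2 scale. The SE is the size of the log2 fold change divided by the square root of F. Marker scores were compared by exact permutation tests in Python.

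Names were taken for 977 contigs from the study's lists. The members, lists and thresholds were chosen with earlier results of these data known. Named were, among shared contigs that had 10 or more counts in 13 or more fish on the higher side, the 12 largest rises, the 12 largest falls and the 6 smallest p, and in each list the called, lowest and highest members. Alternatives were DESeq2 1.42.0 and limma 3.58.1 with voom, other size factors and filters, sums over T tags or diets, covariates, a replicate block and leaving out tags or diets. Fits within L tags were added after the data were seen. Fish of a diet may share a tank, and p-values then measure the spread between fish. Contig sequences were not used here. No pair of libraries was identical.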

Additional observations from a re-analysis of the deposited data

Results flagged for a closer look

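Within each diet, a fish was looked for whose log2 CPM or marker score stood far from the rest of its group (Dixon's ratio), in the 30 named contigs with a shared shift and the 7 marker scores. Such a fish was found in 24 of 222 groups (10.8%), where chance gives about 1 in 20. A log2 CPM of -4.53 is the value of a contig with 0 counts.

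With fish meal, guanidinoacetate N-methyltransferase stood low in Diet 2 replicate 2 (log2 CPM 5.76), and the same fish had the lowest exocrine score of its diet (6.65) and 0 counts of the phosphodiesterase eta-1 (-4.53). Diet 2 replicate 4 stood high for the glutamate--cysteine ligase regulatory subunit (6.58) and had 0 counts of the red blood cell marker (-4.53). Target of Nesh-SH3-like was low in Diet 2 replicate 8 (-2.67). Diet 3 replicate 1 was low for ras GTPase-activating protein-binding protein 1 (2.37) and glutathione synthetase (3.26). Within Diet 3, replicate 2 had 0 counts of S-adenosylmethionine synthase (-4.53), replicate 9 was low for methionine--tRNA ligase (3.7), replicate 8 for the exocrine score (4.84) and replicate 6 stood high for the endocrine islet score (1.70).

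Without fish meal, in Diet 4, COQ8A was low in replicate 6 (2.26), S-adenosylmethionine synthase in replicate 8 (-3.05), serine/arginine-rich splicing factor 11-like in replicate 4 (1.82), and the sodium-coupled neutral amino acid transporter 2-like was at 0 in replicate 3 (-4.53). In Diet 5, the brush border score was low in replicate 9 (-2.26) and the score of phagocytes and lymphocytes high in replicate 6 (4.18). In Diet 6, replicate 5 was high for KN motif and ankyrin repeat domain-containing protein 4 (4.60) and for the endocrine islet score (1.95) and low for the hepatocyte score (9.92). Replicate 6 of that diet was high for methionine--tRNA ligase (6.83), and replicate 7 was low for serine/arginine-rich splicing factor 11-like (1.33) and high for the red blood cell score (5.38).

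The shift differed in size among Diets 4, 5 and 6 in 2 of the 30 named contigs, by the edgeR test of that difference. Cytochrome c-b (adjusted p = 0.0324) had its largest rise with Diet 5, and the glutamate--cysteine ligase regulatory subunit (adjusted p = 0.0252) with Diet 6.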

How the results depend on the processing

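All 37 contigs with a shared shift kept their direction under every alternative that gave a value, and 227 of 1475 values fell short of a call. They were selected for the same sign in each of Diets 4, 5 and 6, and the alternatives reuse the same fish. Their direction was therefore largely set by the selection. Against 147 pooled calls and 37 shared ones, the numbers were 296 and 132 without a filter on low counts, 831 and 130 without a fold threshold, 67 and 17 without Diet 1 and 281 and 191 without Diet 4, where a shared shift needs 2 diets only. The pooled number was 84 without Diet 5 and 3 with counts summed per diet. The shared number was 63 without Diet 2 and 59 without Diet 1 replicate 7. Within L tags, a choice made after the data were seen and with about 3 fish per diet, L1L8 and L3L5 gave 1 pooled and 1 shared contig each and L2L4 gave 156 and 76. Leaving out each T tag gave 100 to 171 pooled and 25 to 55 shared contigs. DESeq2 gave 2 calls for Diet 4 and 7 for the step from 30% to 15% fish meal. Counts summed per T tag gave 111 pooled calls, with 395 for Diet 5 and 180 for Diet 6, in place of 147, 515 and 256. Of the 37 contigs 36 were still called with these sums and 25 kept the shared shift. In limma voom with the T tag as a block these numbers were 31 and 25. Contigs that differed among Diets 4, 5 and 6 were 269 with T tag sums in place of 699. With fish as the unit of a permutation test, the islet score (-1.22, adjusted p = 0.0235) and the sex marker score (-0.81, adjusted p = 0.0338) passed the threshold. The cause of these differences was not tested.

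Replicate numbers paired the fish weakly at most. Same-numbered fish of 2 diets correlated from -0.35 to 0.49 (130 pairs, median 0.07), against a median of -0.006 for other numbers. Of 53 libraries 14 were closest to their own number, more than an even spread over 9 numbers would give. Each number belongs to a single L tag, and fish of other diets had a median of 0.06 within an L tag against -0.02 between L tags. The cause was not tested. With the number as a replicate block 156 contigs were called in the pooled comparison, 41 had a shared shift, 0, 568 and 266 were called with Diets 4, 5 and 6, 0 for the fish meal step and 684 differed among Diets 4 to 6.

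Directions turned in list members, all but hepcidin of which were not called to begin with. Without Diet 6 log2 fold changes were -0.03 for hepcidin, 0.22 for solute carrier family 40 member 1, 0.02 for alpha-1-acid glycoprotein 1-like, -0.22 for PTX3 and 1.03 for claudin-15-like. Claudin-15-like was also 0.46 without Diet 2, 0.40 in limma voom, -1.53 to 0.94 without single T tags, 1.38 in L2L4 and 1.29 in L3L5. Neutrophil cytosol factor 4 was -0.11 without Diet 3, -0.43 without Diet 5, -0.04 in limma voom, -0.45 in L1L8, -0.20 in L3L5 and -0.06 to 0.17 without single T tags. Vitellogenin B was 0.26, 0.12 and 0.08 without Diets 1, 3 and 4, 0.02 in L1L8 and 0.74 in L2L4. With the exocrine score as a covariate it was 0.09, vitelline membrane outer layer protein 1 homolog 0.49 and chymotrypsin A-like 0.63, and the last was 0.07 without Diet 1. Chymotrypsin A-like is itself a member of that score, so its value with the covariate is not independent of the score. In L1L8 acyl-CoA desaturase-like was -0.10, the 78 kDa glucose-regulated protein -0.29 and wee1-like protein kinase -0.11. In L2L4 arginase-2 was 0.21, sodium/glucose cotransporter 5 0.71, apolipoprotein C-I-like -0.41, pancreatic lipase 0.01, insulin 0.55 and hemoglobin subunit beta-A-like -0.30. Insulin was -4.29 to 0.22 without single T tags and 3.52 in DESeq2, which gave it no adjusted p, and transketolase 0.35 in L3L5. Contigs with medians under 1 CPM rest on few counts per fish.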
